A study of Mus musculus with 9 samples.

Results

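The genes described here encode the folding and disposal machinery of the endoplasmic reticulum (ER) and the sensors that control it. They comprise 33 genes of the 55416 counted, chosen by name: 4 sensors and their transcription factors, 11 chaperones and co-chaperones, 6 genes of oxidative folding and 12 genes of ER-associated degradation (ERAD). Each of the 33 symbols matched 1 row of the counts, and 32 passed the filter on low counts. The exception was *Derl3*. RNA of whole lenses at E16.5 came from 4 embryos that were *Atf4* null and 5 that were wildtype, with 1 library from the single pair of lenses of each embryo. The null embryos were homozygous for *Atf4* tm1Tow, an allele in which a neomycin resistance cassette replaces the coding exons in every tissue. The wildtype embryos were littermates from the same crosses of heterozygous parents on a mixed C57Bl/6/129 background. Because 129 mice carry a deletion in *Bfsp2* and typing for it was not done, either genotype may hold that deletion. The paper adds that its RNA sequencing points to *Bfsp2* mRNA in these lenses. Among the questions of the study was whether loss of ATF4, which takes part in the unfolded protein response, changes that response in the lens.

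Proteins bound for the membrane or for secretion fold in the ER, and when unfolded chains build up there the cell answers with more chaperones and slower translation, the unfolded protein response. Its sensors are IRE1 (encoded by *Ern1*), which splices the mRNA of the transcription factor XBP1, ATF6 and its relative ATF6B, which are cut from the ER membrane and enter the nucleus, and PERK (encoded by *Eif2ak3*), which phosphorylates eIF2α and so raises the translation of ATF4. XBP1 and ATF6 act on the promoters of ER chaperones, whereas ATF4 is best known for genes of amino acid supply. Proteins that do not fold are marked by the EDEM proteins, passed through a membrane complex of SEL1L, the ubiquitin ligase HRD1 and the derlins, and degraded in the cytosol. The lens is of interest because its fiber cells make large amounts of membrane protein before they dismantle their organelles.

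Between 8409779 and 8906996 counts per wildtype library and between 7440807 and 8696699 per *Atf4* null library lay on genes. Levels are given as CPM, counts scaled to a common library size after the size of each library was multiplied by its TMM factor (edgeR). The level of *Atf4* itself was 119 to 155 CPM in wildtype and 0.582 to 10.6 CPM in *Atf4* null libraries. The 2 groups did not overlap. Wildtype replicate 5 stood apart. Its 12 skeletal muscle markers summed to 9823 CPM and its 10 mesenchyme markers to 15622 CPM, against at most 127 CPM and 794 CPM in the other 8 libraries. Among those 8 the genotypes did not overlap either, with muscle markers at 16.8 to 40.8 CPM in wildtype and 41.2 to 127 CPM in *Atf4* null libraries, and mesenchyme markers at 220 to 272 and 436 to 794 CPM. The part of these markers in the results was not tested. Values that turned sign without it are given below. For lens fiber markers, wildtype replicate 5 had a sum of 31121 CPM and the other wildtype libraries 53343 to 58813 CPM. They summed to 23450 to 36620 CPM in *Atf4* null replicates 1 to 3, and *Atf4* null replicate 4, at 56053 CPM, lay among the wildtype libraries. Of 11 fiber markers tested, 5 had an adjusted p below 0.05 (edgeR), each of them lower without *Atf4*, and the median log2 fold change of the 11 was -0.57. Of 12 lens epithelium markers, 10 were lower and 1 was higher in *Atf4* null lenses at an adjusted p below 0.05, and of 12 retina markers 5 were higher (edgeR's quasi-likelihood test). Retina markers summed to 396 to 506 CPM in wildtype and 516 to 1153 CPM in *Atf4* null libraries. In whole lenses, fewer cells of a type and less RNA per cell cannot be told apart.

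A minority of the members hold a promoter motif of the unfolded protein response. The members were chosen by name for this pathway, so the share with the motif is not independent of their choice. The ER stress response element (ERSE) is the motif of CCAAT, 9 bases of any kind and CCACG, whose first block is known to bind NF-Y and whose last binds ATF6 and XBP1. It was searched on both strands in the RefSeq promoters of GRCm38.p6, which span 250 bases before to 50 bases after each start. The table holds 29 of the 33 members and 27025 genes in all. The motif was found in 10 of the 29 members and in 0.137% of all genes, or 37 genes. A second form, ERSE-II (ATTGG, 1 base of any kind and CCACG), was found in 2 members and in 0.0444% of genes. It shares the block CCACG with ERSE, but no 2 matches in the members overlapped. *Atf6*, *Derl1*, *Hyou1* and *Manf* are not in the table. The elements are shown in their own 5′ to 3′ direction, with the fixed letters in capitals and the spacer in lower case, because they are what the promoters of these 12 genes have in common, while 17 of the 29 hold neither form.
Hspa5: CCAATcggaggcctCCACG
Hsp90b1, nearer the start: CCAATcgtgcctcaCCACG
Hsp90b1, farther from the start: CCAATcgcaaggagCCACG
Calr: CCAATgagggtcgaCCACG
Canx: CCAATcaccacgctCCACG
Creld2: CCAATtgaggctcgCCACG
Dnajc3: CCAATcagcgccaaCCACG
Pdia6: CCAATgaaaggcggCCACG
Ero1b: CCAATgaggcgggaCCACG
Syvn1: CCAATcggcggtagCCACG
Derl3: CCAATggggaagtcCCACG
Dnajb11, ERSE-II: ATTGGcCCACG
Herpud1, ERSE-II: ATTGGgCCACG

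By arm, the 12 genes with either form were 7 chaperones, 2 genes of oxidative folding and 3 of ERAD. The spacer differed from gene to gene. Of the elements before the start, that of *Syvn1* was the nearest, ending 26 bases before it, and the farther one of *Hsp90b1* ended 194 bases before it. The ERSE-II of *Dnajb11* lay after the start, at positions 8 to 18.

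**Figure D1:**
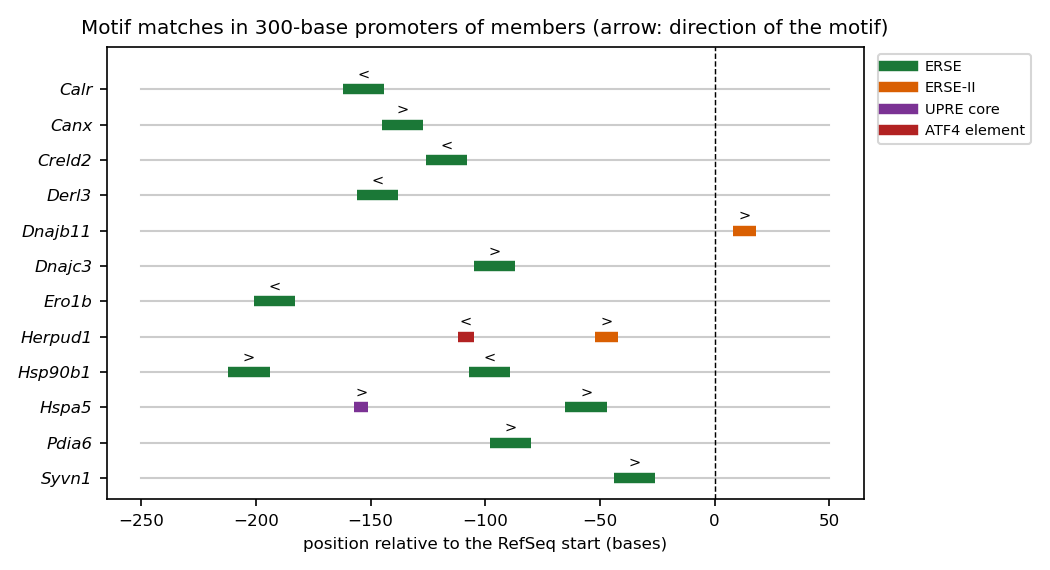
Position of motif matches in the 300-base promoters of the 12 members that hold an ERSE or ERSE-II, in bases from the RefSeq start, with the direction of each motif as an arrow. ERSE matches lie before the start in the 10 members that have one, and *Herpud1* is the member that also holds the ATF4 element.

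The promoters of *Hspa5* and *Herpud1* are printed whole because they carry a further motif. That of *Hspa5* (BiP, the main chaperone and the usual marker of the response) lies at chr2:34771840-34772139 on the plus strand of GRCm38.p6. Its capitals mark the UPRE core TGACGTG, a motif known to bind XBP1 and ATF6, followed by the ERSE. The UPRE core was found in 1 of the 29 members and in 2.22% of all genes.
Hspa5 promoter: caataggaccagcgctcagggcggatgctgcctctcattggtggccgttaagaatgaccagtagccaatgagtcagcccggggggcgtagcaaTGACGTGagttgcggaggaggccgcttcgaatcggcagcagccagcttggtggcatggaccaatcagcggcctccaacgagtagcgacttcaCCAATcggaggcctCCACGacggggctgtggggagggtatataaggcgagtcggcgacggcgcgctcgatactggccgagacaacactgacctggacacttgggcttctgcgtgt

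The promoter of *Herpud1* (a membrane protein that organizes the ERAD complex) lies at chr8:94386179-94386478 on the plus strand of GRCm38.p6. Its capitals mark the ATF4 element TGATGCAA, which reads TTGCATCA on the strand shown and covers positions -112 to -105 from the start, and then the ERSE-II. The ATF4 element was found in 1 of the 29 members and in 1.03% of all genes. These matches are letters in a window and were not tested for binding.
Herpud1 promoter: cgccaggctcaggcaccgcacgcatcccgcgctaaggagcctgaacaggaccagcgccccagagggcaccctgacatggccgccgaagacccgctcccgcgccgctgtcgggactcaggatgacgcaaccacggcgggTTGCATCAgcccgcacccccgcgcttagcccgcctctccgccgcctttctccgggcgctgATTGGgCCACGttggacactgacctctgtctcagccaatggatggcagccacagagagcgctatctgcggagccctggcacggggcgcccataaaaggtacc

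In wildtype lenses, the members were expressed over a wide range. Levels between genes are given as FPKM, which divide the CPM by the length of the canonical transcript. *Calr* (calreticulin, a calcium-binding lectin chaperone) was the highest at 358 ± 25.1 FPKM (SD, n = 5), followed by *Hsp90b1* (GRP94) at 189 ± 14.9 and *Canx* (calnexin, the membrane-bound lectin chaperone) at 139 ± 11.6 FPKM. These 3 did not overlap between genes in any wildtype library. *Pdia6*, *Pdia3*, *P4hb* and *Hspa5* came next, at 96.2 ± 21.3, 92.5 ± 3.17, 82.5 ± 17.8 and 69.3 ± 7.17 FPKM, and the ranges of neighbours in this order overlapped over the libraries, although *P4hb* was above *Hspa5* within each library. Genes of ERAD and the sensors lay lower. The highest of ERAD were *Os9* (a lectin that delivers glycoproteins to the ligase) at 39.8 ± 1.86 FPKM and *Selenos* (a selenoprotein that recruits p97) at 30 ± 8.6 FPKM. Among the sensors, *Atf6b* at 21.6 ± 1.26 FPKM and *Xbp1* at 20.4 ± 4.14 FPKM could not be ordered, while *Atf6* stood at 7.69 ± 1.11 and *Ern1* at 4.75 ± 1.04 FPKM. The lowest were *Edem1* at 3.01 ± 0.848 FPKM, *Ero1b* at 1.43 ± 0.879 FPKM and *Derl3* at 0.113 ± 0.167 FPKM.

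Some paralogs differed in level in each library and others did not. The level per length of *Atf6b* was 2.54 to 3.24 times that of *Atf6* in the wildtype libraries, with a median of 2.64, and 1.99 to 3.85 times in the *Atf4* null libraries. *Calr* stood at 2.38 to 2.70 times *Canx* in wildtype and at 2.14 to 2.43 times in *Atf4* null libraries. The ratio of *Ero1a* to *Ero1b*, the oxidases that feed electrons from protein disulfide isomerase to oxygen, was less settled, at 1.71 to 9.63 in wildtype libraries. The lowest ratio was in wildtype replicate 5, which had the highest *Ero1b*. The ratio of *Edem2* to *Edem1* spanned 1 in both genotypes, at 0.898 to 2.54 in wildtype and 0.578 to 1.71 in *Atf4* null libraries. With the summed length of all annotated exons in place of the canonical transcript, the FPKM of *Manf* went from 17.6 to 3.25 and that of *Xbp1* from 20.4 to 5.79. *Calr* and *Hsp90b1* stayed the highest, but *Pdia3* at 72.3 FPKM passed *Canx* at 69.6, and *Pdia6* at 50 came behind *P4hb* at 65.2 and *Hspa5* at 61.8, so the ranks after *Hsp90b1* depend on the length used.

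**Figure D2:**
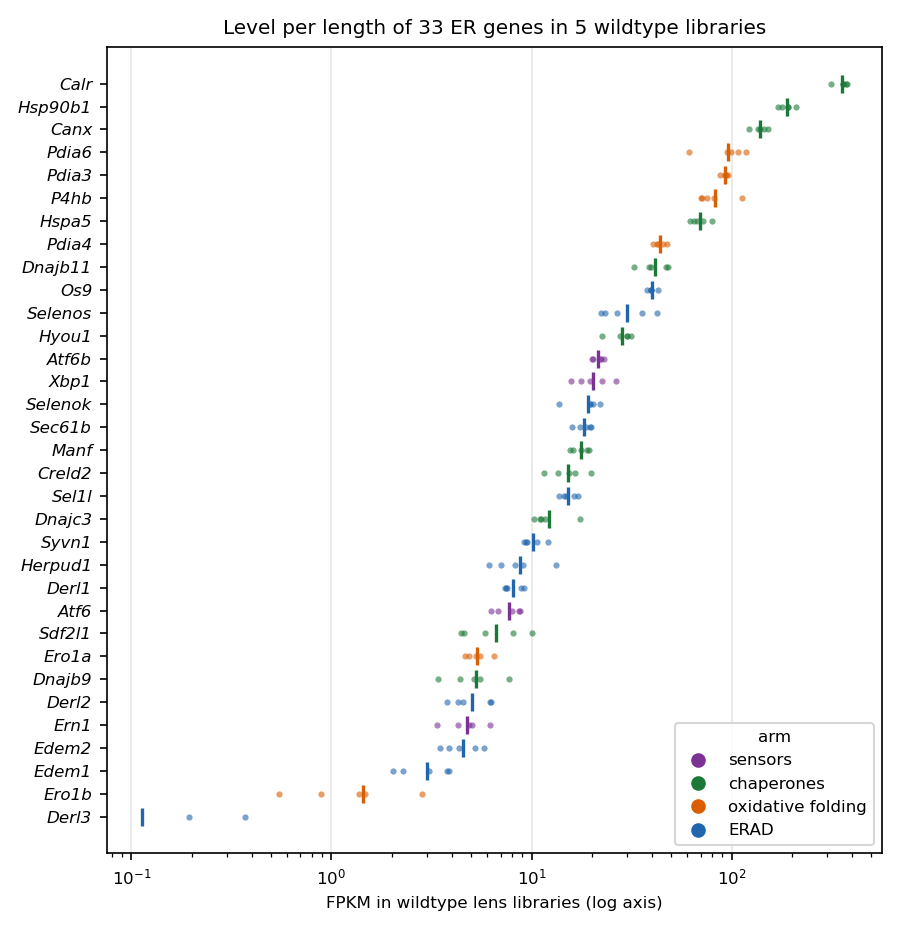
FPKM of the 33 members in the 5 wildtype libraries on a log axis, coloured by arm, with a point for each library and a bar for the mean. Chaperones and disulfide isomerases lead, from *Calr* at 358 FPKM, and *Derl3* is last at 0.113 FPKM, with its 3 libraries without a count not drawn.

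The main comparison asked whether the mRNA of these genes differed between *Atf4* null and wildtype lenses. It did not at the threshold used. Of the 32 members tested, 0 had an adjusted p below 0.05 in the quasi-likelihood test of edgeR, with p adjusted by Benjamini-Hochberg over the 14903 genes tested, against 5.90% of all genes tested. By direction, 0 members were higher and 0 lower, against 2.23% and 3.67% of all genes. DESeq2 and edgeR's exactTest also called 0. At an unadjusted p below 0.05 there were 3 (*Ero1a*, *Sec61b* and *P4hb*, 9.38%), against 19.6% of all genes. The CPM of the genotypes did not overlap for 2 of the 32 (*Ero1a* and *Sec61b*, 6.25%), against 10.2% of all genes. Both separations depend on the TMM factors. With counts over library size alone, *Atf4* null replicate 1 lay above wildtype replicate 1 for *Ero1a*. For *Sec61b*, *Atf4* null replicate 2 then lay above wildtype replicate 2. The median log2 fold change of the members was -0.04, beside 0.00 over all genes tested, with 11 higher and 21 lower in *Atf4* null lenses. Scaling by library size alone turned the members' median to 0.09, along with that of all genes to 0.12. The extremes were -1.03 for *Sdf2l1* and 0.36 for *Creld2*. Leaving out wildtype replicate 5 left the number called at 0 and moved the median to -0.06, and leaving out *Atf4* null replicate 4 gave 0 and -0.03. Without wildtype replicate 5, 7 members changed sign, to -0.06 for *Dnajb11*, -0.09 for *Herpud1*, -0.00 for *Derl2*, *Canx* and *Syvn1*, 0.05 for *Edem1* and 0.06 for *Ero1b*.

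A test that is missed does not show that levels are equal, so the intervals are given. The 95% interval of the fold change lay within 2-fold either way for 30 of the 32 members and within 1.5-fold for 19, against 52.4% and 23.3% of all genes. These genes are abundant, with a median of 45.3 CPM against 18 CPM over all genes tested, and abundant genes have narrower intervals. Among the 9370 genes with a mean of at least 10 CPM, 78.5% had an interval within 2-fold, 37.1% within 1.5-fold and 8.24% an adjusted p below 0.05. For the 30 members at that level the same shares were 100%, 63.3% and 0.00%. The members whose interval reached beyond 2-fold were *Sdf2l1* and *Ero1b*, which had the lowest CPM of those tested. The 33 genes together summed to a mean of 4391 CPM (SD 167, 5 libraries) in wildtype lenses and of 4331 CPM (SD 295, 4 libraries) in the null lenses, a ratio of 0.986. By arm, the ratio of the summed CPM was 0.968 for the sensors, 0.991 for the chaperones, 0.990 for oxidative folding and 0.961 for ERAD, and the ranges of the genotypes overlapped in each arm.

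**Figure D3:**
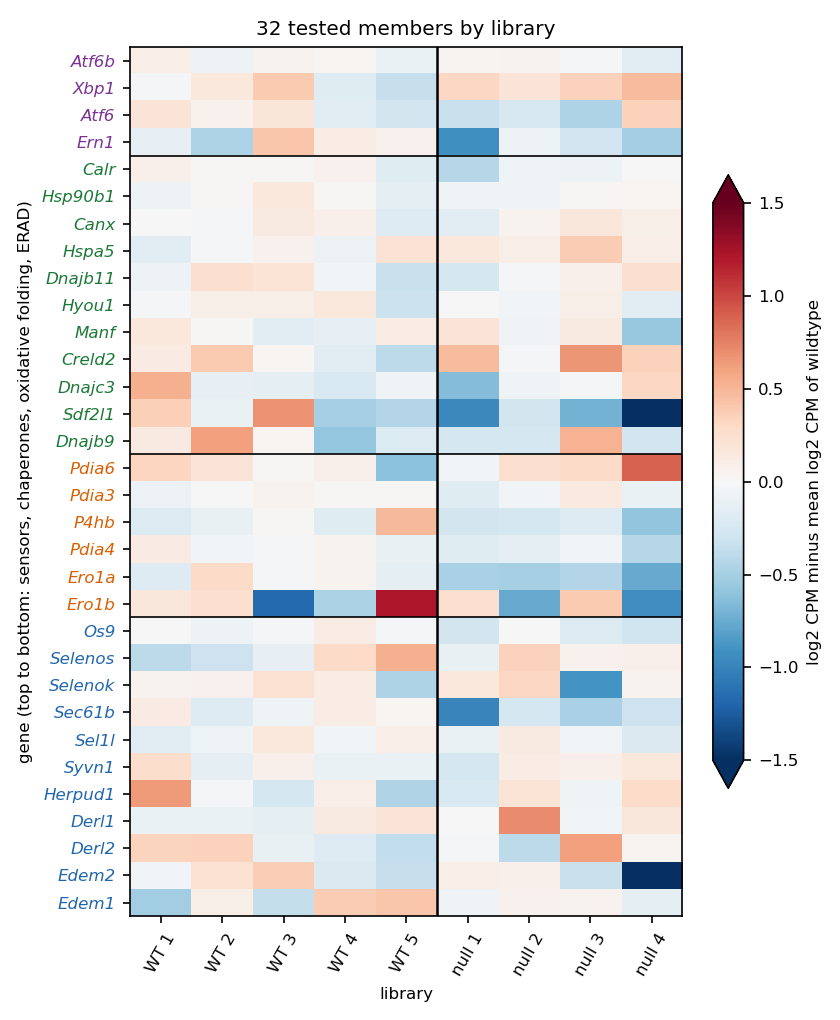
Log2 CPM of the 32 tested members in each library, minus the mean log2 CPM of the 5 wildtype libraries, grouped by arm (rows) and genotype (columns). *Ero1a* and *Sec61b* are below the wildtype mean in the 4 *Atf4* null libraries, and single libraries stand out for low genes such as *Ero1b*, *Sdf2l1* and *Edem2*.

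Of the 4 sensors, 0 were called, and their median log2 fold change was -0.09. *Xbp1* (ENSMUSG00000020484, chromosome 11 from 5470606 to 5483027 on the plus strand of GRCm39), the transcription factor made when IRE1 is active, stood at 38.8, 44.1, 51.9, 34.7 and 31.2 CPM in wildtype replicates 1 to 5. It stood at 48.8, 45.0, 50.3 and 54.7 CPM in the *Atf4* null libraries. The 4 null libraries were above 4 of the wildtype libraries, and wildtype replicate 3 lay among them. The log2 fold change was 0.31 with a standard error of 0.17 and a 95% interval of -0.05 to 0.67 (edgeR, adjusted p = 0.337). The counts are per gene, so they do not separate spliced from unspliced *Xbp1*.

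*Ern1* (ENSMUSG00000020715, minus strand of chromosome 11, 106283818 to 106378686), the gene of IRE1, leaned the other way. Its CPM were 29.9, 23.7, 43.5, 35.3 and 34.1 in wildtype and 17.2, 31.0, 26.8 and 23.0 in *Atf4* null libraries. The 2 lowest wildtype libraries lay within the null range. The log2 fold change was -0.44 with a 95% interval of -0.92 to 0.03 (edgeR, adjusted p = 0.291).

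*Atf6* (chromosome 1 from 170532026 to 170696208, minus strand) stood at 65.9, 60.3, 65.1, 51.1 and 47.3 CPM in wildtype. In the null libraries it stood at 45.5, 48.6, 41.6 and 72.8 CPM, and *Atf4* null replicate 4 was the highest of the 9 libraries. *Atf6b* (chromosome 17 from 34866091 to 34874056, plus strand) stood at 60.2, 53.2, 58.4, 57.3 and 52.7 CPM in wildtype and 58.0, 58.3, 55.5 and 50.1 CPM in *Atf4* null libraries, and varied little within either genotype. Their log2 fold changes were -0.16 (95% interval -0.55 to 0.23) and -0.02 (-0.28 to 0.24). That of *Atf6* was -0.36 without *Atf4* null replicate 4 (edgeR, adjusted p = 0.229) and -0.06 without *Atf4* null replicate 3. The third sensor, *Eif2ak3*, is not one of the 33 genes and stood at 16.3, 18.1, 24.6, 24.8 and 44.2 CPM in wildtype and 27.9, 17.6, 21.6 and 23.7 CPM in *Atf4* null libraries, a log2 fold change of -0.17 (edgeR, adjusted p = 0.809) that was 0.12 without wildtype replicate 5.

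Of the 11 chaperones, 0 were called, the median log2 fold change was -0.04, and 9 had a log2 fold change within 0.2 of 0. *Hspa5* (ENSMUSG00000026864, chromosome 2 from 34661982 to 34668880, plus strand) stood at 306, 334, 357, 321 and 397 CPM in wildtype and 381, 366, 444 and 365 CPM in *Atf4* null libraries. The 4 null libraries exceeded wildtype replicates 1 to 4 and overlapped replicate 5. The log2 fold change was 0.18 with a standard error of 0.12 and a 95% interval of -0.07 to 0.43 (edgeR, adjusted p = 0.437). Without wildtype replicate 5 it was 0.24 (edgeR, unadjusted p = 0.0436, adjusted p = 0.212). Without *Atf4* null replicate 3 it was 0.11 with an adjusted p of 0.752. The adjusted p ranged from 0.203 to 0.752 over 17 alternatives. An increase of 1.5-fold lay outside the 95% interval of the fit with all 9 libraries.

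*Hsp90b1*, the ER member of the HSP90 family, stood at 507, 540, 596, 541 and 485 CPM in wildtype and at 513, 512, 538 and 544 CPM in *Atf4* null libraries, so the null libraries lay inside the wildtype range. *Calr* stood at 862, 829, 827, 858 and 721 CPM in wildtype and 607, 785, 775 and 824 CPM in *Atf4* null libraries. For *Calr*, *Atf4* null replicate 1 was the lowest library and wildtype replicate 5 the next. The log2 fold changes were -0.02 (95% interval -0.24 to 0.20) and -0.13 (-0.39 to 0.12), the latter -0.04 without *Atf4* null replicate 1. *Canx*, *Hyou1* (an exchange factor for BiP) and *Dnajb11* (a co-chaperone of BiP) had log2 fold changes of 0.04, -0.04 and 0.01.

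The remaining chaperones were lower in level. The co-chaperones *Dnajc3* and *Dnajb9* had log2 fold changes of -0.09 and -0.08, and *Manf*, a secreted protein induced by ER stress, one of -0.04. *Creld2*, also a secreted product of ER stress, stood at 23.1, 27.8, 21.5, 19.0 and 16.1 CPM in wildtype and 29.4, 20.9, 33.4 and 26.8 CPM in *Atf4* null libraries. Its log2 fold change of 0.36 had a 95% interval of -0.09 to 0.81, and the groups overlapped. *Sdf2l1*, a partner of BiP and its co-chaperones, stood at 8.99, 6.54, 11.2, 4.94 and 5.14 CPM in wildtype and 3.59, 5.76, 4.28 and 0.728 CPM in *Atf4* null libraries. It had between 5 and 91 counts per library, and its 95% interval of -2.14 to 0.08 around -1.03 allows both a large decrease and none.

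Oxidative folding had a median log2 fold change of -0.27 and held 2 of the 3 members at an unadjusted p below 0.05. Its median was -0.12 without wildtype replicate 5 and -0.15 without *Atf4* null replicate 4, beside -0.13 and -0.17 for the sensors, so the order of these arms rests on those libraries. None of its 6 genes was called. *Ero1a* (ENSMUSG00000021831, chromosome 14 from 45520541 to 45556228, minus strand), the oxidase that reoxidizes protein disulfide isomerase, stood at 20.7, 28.9, 23.3, 24.6 and 21.5 CPM in wildtype. It stood at 16.9, 16.8, 17.4 and 14.0 CPM in *Atf4* null libraries, and with TMM factors each null library was below each wildtype library. The log2 fold change was -0.55 with a standard error of 0.19 and a 95% interval of -0.95 to -0.14 (edgeR, unadjusted p = 0.0117, adjusted p = 0.115). It was negative in each of 17 alternatives, from -0.59 to -0.41, and the lowest adjusted p was 0.0823, with DESeq2. Its paralog *Ero1b* had between 19 and 114 counts per library and a log2 fold change of -0.35 with an interval of -1.44 to 0.73. Wildtype replicate 5 was its highest library, and without it the log2 fold change was 0.06.

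The disulfide isomerases did not move as a group. *Pdia3*, which works with calreticulin and calnexin on glycoproteins, stood at 321, 340, 353, 344 and 343 CPM in wildtype and 299, 331, 376 and 318 CPM in *Atf4* null libraries, with a log2 fold change of -0.04 (95% interval -0.26 to 0.19). *Pdia4* had a log2 fold change of -0.19 (-0.43 to 0.05), which was -0.12 without *Atf4* null replicate 4. *Pdia6* stood at 392, 359, 316, 330 and 205 CPM in wildtype and 305, 369, 382 and 578 CPM in *Atf4* null libraries. Its lowest library was wildtype replicate 5 and its highest *Atf4* null replicate 4. The log2 fold change of 0.35 (edgeR, adjusted p = 0.376) was 0.23 without the first and 0.13 without the second. In the alternatives the adjusted p of *Pdia6* ran from 0.0953, with library size scaling, to 0.77.

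*P4hb*, which encodes protein disulfide isomerase itself and is also a subunit of the enzyme that hydroxylates collagen, stood at 207, 221, 241, 210 and 333 CPM in wildtype and 197, 198, 209 and 158 CPM in *Atf4* null libraries. Wildtype replicate 5, the library with muscle and mesenchyme markers, was the highest. With it the log2 fold change was -0.35 (95% interval -0.68 to -0.02, edgeR, unadjusted p = 0.0378, adjusted p = 0.219), and without it -0.21 with an adjusted p of 0.333. The part of those markers in the level of *P4hb* was not tested.

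**Figure D4:**
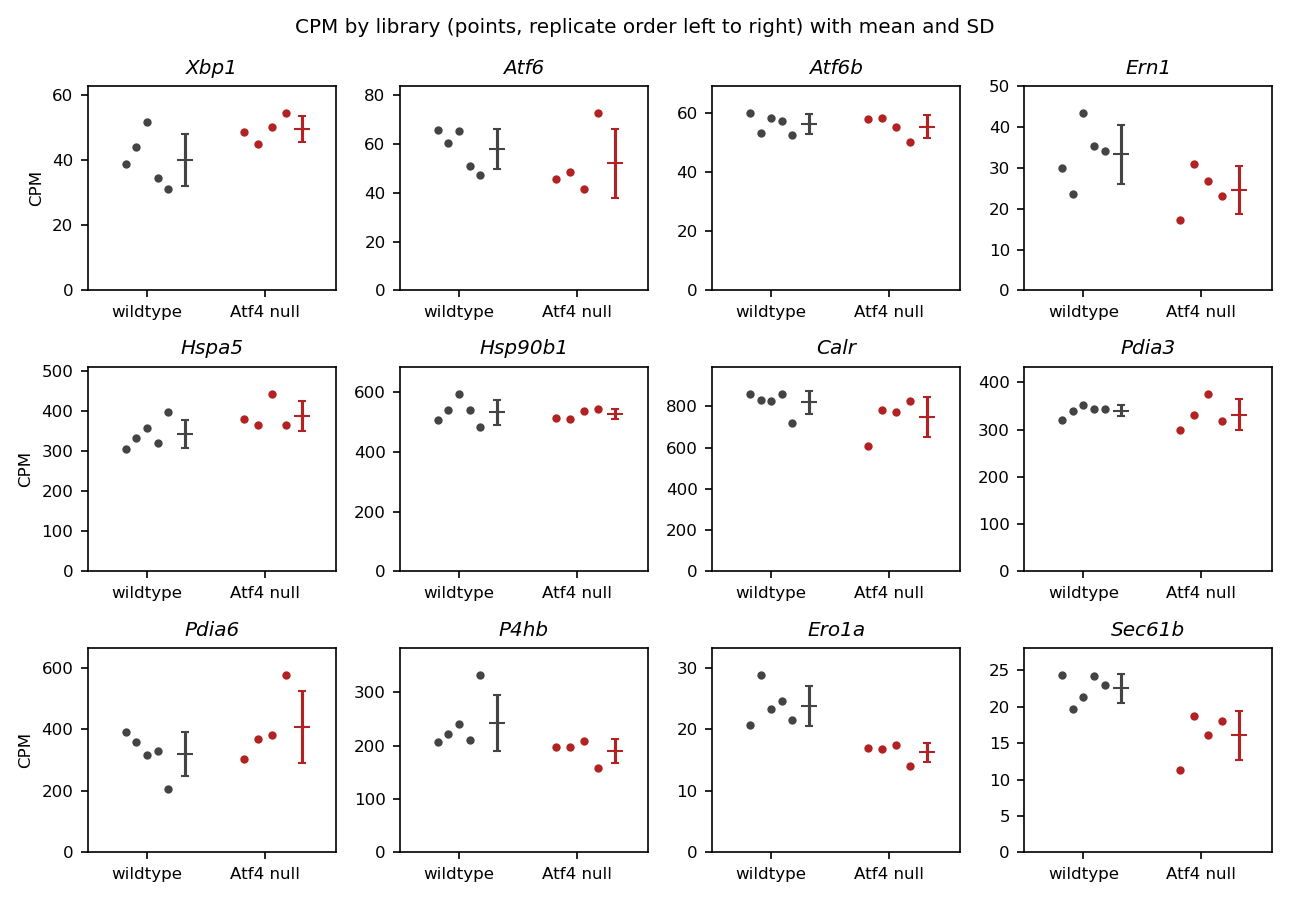
CPM in each library (points) with the mean and SD (bars) of 12 members, in wildtype and *Atf4* null lenses, on linear axes from 0. With TMM factors *Ero1a* and *Sec61b* do not overlap between the genotypes, *Hspa5*, *Hsp90b1*, *Calr* and *Pdia3* do, and 1 wildtype library is high for *P4hb* and low for *Pdia6*.

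Of the 11 ERAD genes tested, 0 were called, and their median log2 fold change was -0.04. The estimates of *Sel1l*, *Syvn1* and *Herpud1* lay close to 0, with intervals of differing width. *Sel1l* (the scaffold) had a log2 fold change of -0.06 (95% interval -0.31 to 0.19), *Syvn1* (HRD1, the ubiquitin ligase) one of 0.02 (-0.32 to 0.37) and *Herpud1* one of 0.01 (-0.48 to 0.50). *Herpud1*, whose promoter holds the ATF4 element, stood at 41.1, 25.9, 21.9, 28.2 and 19.2 CPM in wildtype and 22.4, 30.4, 25.2 and 31.9 CPM in *Atf4* null libraries. Its null libraries lay inside the wildtype range. The derlins, membrane proteins through which substrates leave the ER, had log2 fold changes of 0.23 for *Derl1* and 0.08 for *Derl2*. Without *Atf4* null replicate 2, its highest library at 56.3 CPM, that of *Derl1* was 0.04.

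*Os9* stood at 94.9, 90.6, 94.6, 103 and 94.5 CPM in wildtype and 78.6, 94.9, 82.5 and 77.6 CPM in *Atf4* null libraries, and 1 null library lay within the wildtype range. Its log2 fold change was -0.19 (95% interval -0.43 to 0.04). The mannosidase-like *Edem1* and *Edem2*, which mark glycoproteins for disposal, had log2 fold changes of -0.07 and -0.32. Without *Atf4* null replicate 4, its lowest library at 5.24 CPM, that of *Edem2* was -0.07. Those of the selenoproteins were 0.06 for *Selenos* and -0.04 for *Selenok*. *Selenos* stood at 26.6, 28.0, 32, 42.5 and 50.5 CPM in wildtype and 32.2, 44.3, 36.3 and 36.8 CPM in *Atf4* null libraries.

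*Sec61b* (ENSMUSG00000053317, chromosome 4 from 47474614 to 47483864, plus strand), a subunit of the channel through which proteins enter the ER, stood at 24.4, 19.7, 21.4, 24.2 and 23.0 CPM in wildtype. In *Atf4* null libraries it stood at 11.3, 18.7, 16.1 and 18.1 CPM, each below each wildtype library with TMM factors. The log2 fold change was -0.49 with a standard error of 0.20 and a 95% interval of -0.93 to -0.05 (edgeR, unadjusted p = 0.0306, adjusted p = 0.194). Without *Atf4* null replicate 1, the lowest, it was -0.35 with an adjusted p of 0.376, in a range of 0.164 to 0.376 over 17 alternatives. *Derl3* had 2, 0, 4, 0 and 0 counts in the wildtype libraries and 3, 3, 0 and 23 in the *Atf4* null libraries, and was too low to test.

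The 9 tested members with an ERSE had a median log2 fold change of 0.02, from -0.35 for *Ero1b* to 0.36 for *Creld2*, with 5 higher and 4 lower. The 19 tested members of the promoter table without it had a median of -0.07, with 5 higher and 14 lower. With library size scaling, *Dnajb9*, *Atf6b*, *Sel1l*, *Pdia3*, *Edem1* and *Selenok* of those without an ERSE turned positive. So did *Hsp90b1* and *Dnajc3* of those with one, and the split by sign depends on the scaling. The other 27 genes with an ERSE in the promoter were mostly too low to test. Of them 10 were tested, and 0 had an adjusted p below 0.05, with 1 at an unadjusted p below 0.05 (edgeR).

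Genes around the same pathway were examined in 7 further lists. In 6 lists of other ER genes, 86 of 90 genes were tested and 7 had an adjusted p below 0.05 (8.14%, against 5.90% of all genes and 8.24% of those with at least 10 CPM), 3 higher and 4 lower in *Atf4* null lenses, and the median log2 fold change was -0.10. The largest decrease among the 7 was that of *Txndc12* (ERp18, a thioredoxin-like ER protein), at 41.5, 45.5, 56.4, 42.4 and 37.1 CPM in wildtype and 23.1, 23.3, 26.0 and 15.9 CPM in *Atf4* null libraries. Its log2 fold change was -1.01 with a standard error of 0.19 (edgeR, adjusted p = 0.00637). *Txndc5* (a disulfide isomerase) fell from a mean of 132 ± 3.66 (SD, n = 5) to 92.6 ± 8.79 CPM (SD, n = 4), a log2 fold change of -0.52 (edgeR, adjusted p = 0.00937). Both kept an adjusted p below 0.05 in each of 17 alternatives, and for both the genotypes did not overlap. They were the 2 called of 16 tested (12.5%, against 5.90% of all genes) in a list of other oxidative folding genes, whose median was -0.14.

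*Ppib* (cyclophilin B, a prolyl isomerase) was the 1 called of 18 other chaperones (5.56%, against 5.90% of all genes), at -0.47 (edgeR, adjusted p = 0.0287). The median of that list was -0.21, with 3 higher and 15 lower. *Tmbim6* (an ER membrane inhibitor of cell death) was the 1 called of 9 sensor partners (11.1%), at -0.54 (edgeR, adjusted p = 0.0177). The median of the sensor partners was -0.17, with 2 higher and 7 lower. *Ppib* stayed called in 11 of 17 alternatives. Among its losses were library size scaling, with its highest adjusted p of 0.122, and the fits without wildtype replicate 1 or 2 or *Atf4* null replicate 2 or 3. *Tmbim6* stayed called in 14 and lost the call without wildtype replicate 2 or 4 or *Atf4* null replicate 2, with adjusted p of up to 0.0582.

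Of 17 other ERAD genes 2 were called, both higher, and of 13 genes of the translocon and signal peptidase 1 was called higher, against 2.23% of all genes. The medians of these lists were 0.01 and -0.01. *Ufd1*, a cofactor of p97, rose from 29.7 ± 2.82 CPM (SD, n = 5) to 48.7 ± 8.56 CPM (SD, n = 4), a log2 fold change of 0.71 (edgeR, adjusted p = 0.0194). *Aup1*, a membrane partner of the ligase complex, and *Sec63*, a translocon protein with a J domain, had log2 fold changes of 0.65 and 0.41 (edgeR, adjusted p = 0.0461 and 0.0472). *Ufd1* stayed called in 13 of 17 alternatives, and its losses included the fits without wildtype replicate 2 or *Atf4* null replicate 2 or 3. *Aup1* and *Sec63* stayed called in 9 and 7. *Sec63* was not called by exactTest (adjusted p = 0.0663) or with no filter on low counts (0.0956), and both genes lost the call without any 1 of wildtype replicates 1 to 4 or *Atf4* null replicates 2 to 4, with adjusted p of up to 0.125 and 0.17. Of 13 genes of N-glycosylation and the calnexin cycle, 0 were called and 1 had an unadjusted p below 0.05 (edgeR), and their median was -0.12.

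In the list of the PERK arm and the targets of the integrated stress response, 12 genes were tested. Apart from *Atf4*, which the null allele removes, 3 of the other 11 were called, 1 higher and 2 lower, against 5.90% of all genes, and 8 were not. *Ddit3* (CHOP, a transcription factor of prolonged ER stress) stood at 3.34, 8.02, 2.35, 1.65 and 7.92 CPM in wildtype and 35.3, 40.3, 34.0 and 62.9 CPM in *Atf4* null libraries. It rose by a log2 fold change of 3.20 with a standard error of 0.42 (edgeR, adjusted p = 0.000581). *Nupr1* (a stress-induced chromatin protein) fell from 243 ± 45.3 CPM (SD, n = 5) to 63.9 ± 20.2 CPM (SD, n = 4), a log2 fold change of -1.93 (edgeR, adjusted p = 0.000155). *Asns* (asparagine synthetase) fell with a log2 fold change of -1.30 (edgeR, adjusted p = 0.0243). *Ddit3* and *Nupr1* were called in each of 17 alternatives. *Asns* was called in 12 and lost the call without wildtype replicate 1, 2 or 3 or *Atf4* null replicate 2 or 3, with adjusted p of up to 0.0818. In the same libraries the CPM of *Hspa5*, *Hsp90b1*, *Calr* and *Pdia3* overlapped between the genotypes, and those of *Ero1a* and *Sec61b* did not. The overlap of *Hspa5* came from wildtype replicate 5 only.

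**Figure D5:**
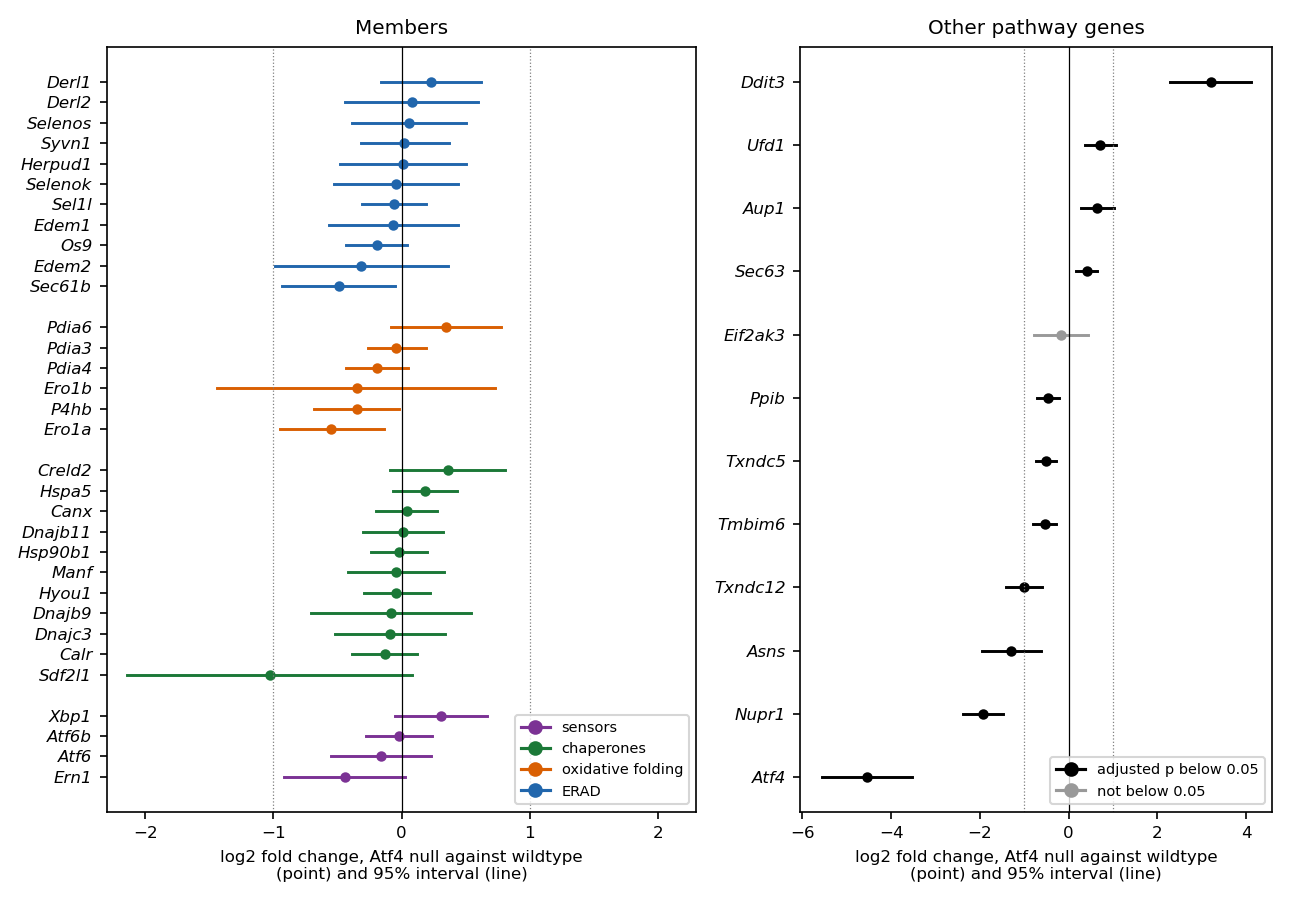
Log2 fold change of *Atf4* null against wildtype lenses (points) with 95% intervals (lines) for the 32 tested members by arm (left) and for the named genes of the other pathway lists (right, on a wider axis), with dotted lines at a 2-fold change. The members lie between -1.03 and 0.36, and *Ddit3* lies at 3.20.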

How the data were processed

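Reads were trimmed by the authors with Trim Galore, cleared of reads on the RN45S ribosomal sequence with HISAT2, aligned to GRCm39 and assigned to Ensembl genes with HTSeq. They deposited raw counts, and the 5 summary entries that name no gene, 44.6% to 47.7% of each library's total, were left out. Each library was sequenced over several lanes, and the deposited counts are named for a single lane. Titles and counts of the wildtype samples name different wildtype libraries, so the wildtype numbers, which follow the titles, are uncertain while the genotype is not. Among 36 pairs of libraries, chi-square divided by its degrees of freedom was at least 7.7, more than sampling noise. The strand setting of the counting is not given in the sources used here, and 18 members overlap an exon on the opposite strand and 3 on the same strand in GENCODE vM39, from which symbols, positions and lengths were taken.

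Genotypes were compared in R 4.3.3 with edgeR 4.0.16 (filterByExpr, TMM factors, estimateDisp, glmQLFit, glmQLFTest, no covariate), with Benjamini-Hochberg adjustment over 14903 genes and a threshold of 0.05. The standard error is the fold change divided by the square root of F. The procedure was tested on simulated data. Alternatives were DESeq2 1.42.0, exactTest, library size scaling, TMM without crystallins, 2 other filters, a robust fit, the replicate number as a block and each library left out. The exon length for FPKM was varied after the data had been seen. Members and lists were chosen with earlier results of these data known. Values in each library are given for the 4 sensors, the 2 most abundant members of each arm and others whose groups stand out, which were chosen after their values were seen. Of the other lists, called genes are named, at most 4 per list, and *Eif2ak3*. Each library is 1 embryo.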

Additional observations from a re-analysis of the deposited data

Results flagged for a closer look

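In 66 groups of 4 or 5 libraries, 5 values, from 4 libraries, lay far from the others of their genotype by Dixon's criterion, and chance flags about 1 group in 20. Both flags of wildtype replicate 5, the library with muscle and mesenchyme markers, concern abundant genes. *Calr* stood at 721 CPM there, against 827 to 862 CPM in the other wildtype libraries, and *P4hb* at 333 CPM, against 207 to 241 CPM. In wildtype replicate 1, *Dnajc3* stood at 90.3 CPM, against 53.5 to 60.4 CPM in the other 4. *Dnajb9* stood at 17.8 CPM in *Atf4* null replicate 3, against 10.2 to 10.4 CPM in the other 3. *Derl3* stood at 3.35 CPM in *Atf4* null replicate 4, from 23 counts, against 0 to 0.36 CPM in the other null libraries.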

How the results depend on the processing

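The number of members called was 0 in each of 17 alternatives, and the lowest adjusted p among the members was 0.0823. Between 2 and 6 members had an unadjusted p below 0.05, the 6 without *Atf4* null replicate 2. The number of all genes called was 880, and 1397 with DESeq2. With each library left out it ran from 527, without *Atf4* null replicate 2, to 1207, without wildtype replicate 5. Library size scaling moved the median log2 fold change of all genes from 0.00 to 0.12 and that of the members from -0.04 to 0.09. It split the calls into 790 higher among 1229, against 333 among 880. Leaving out each library kept the members' median between -0.09 and -0.03.

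Of 32 members, 15 kept the sign of their fold change in each alternative run for them. The other 17, all within 0.35 of 0, changed sign in at least 1. With library size scaling the log2 fold change was 0.05 for *Dnajb9*, 0.11 for *Atf6b*, 0.11 for *Hsp90b1*, 0.06 for *Sel1l*, 0.01 for *Dnajc3*, 0.08 for *Pdia3*, 0.05 for *Edem1*, 0.10 for *Hyou1*, 0.10 for *Manf* and 0.09 for *Selenok*. With at least 10 counts in every library it was -0.00 for *Dnajb11*. With the replicate block it was -0.07 for *Dnajb11*, -0.03 for *Derl2*, -0.01 for *Canx*, -0.00 for *Syvn1*, 0.09 for *Edem1*, -0.06 for *Herpud1*, 0.03 for *Ero1b* and 0.12 for *Eif2ak3*, which is no member. With each library left out it ran from -0.05 to 0.02 for *Atf6b* and *Hsp90b1*, from -0.00 to 0.11 for *Canx*, from -0.14 to 0.21 for *Derl2*, from -0.08 to 0.09 for *Dnajb11*, from -0.32 to 0.10 for *Dnajb9*, from -0.24 to 0.07 for *Dnajc3*, from -0.18 to 0.05 for *Edem1*, from -0.60 to 0.06 for *Ero1b*, from -0.09 to 0.21 for *Herpud1*, from -0.11 to 0.00 for *Hyou1*, from -0.13 to 0.09 for *Manf*, from -0.11 to 0.01 for *Pdia3*, from -0.18 to 0.16 for *Selenok*, from -0.04 to 0.22 for *Selenos*, from -0.03 to 0.11 for *Syvn1* and from -0.30 to 0.12 for *Eif2ak3*. The replicate block is not independent of leaving out wildtype replicate 5. No *Atf4* null library has that number, so this library is alone in its block and adds nothing to the genotype coefficient. The cause of the sign changes was not tested.

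Deviations of same-numbered libraries had correlations of -0.131, -0.019, -0.023 and 0.008. These do not show a pairing by number. The labels give no litter, so whether libraries share a litter is unknown. With the replicate block, 852 genes and 0 members were called, the median of oxidative folding was -0.13 and that of the sensors -0.15, and the adjusted p was 0.0842 for *Ppib*, 0.0811 for *Ufd1*, 0.0682 for *Aup1* and 0.0919 for *Sec63*, which were then not called. *Sdf2l1* has no value under the filter of 10 counts. Depth limits *Derl3*, *Ero1b*, *Sdf2l1* and *Dnajb9* most.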
